A study of Saccharomyces cerevisiae with 15 samples.

Results

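RNA of yeast cells that had received 5 μM melatonin and then 2 mM H2O2 for 1 h (MelH, 3 arrays) was set against RNA of cells that had received neither (Control, 3 arrays). These are 6 of the 15 arrays of the series, chosen by the label of each array. The cells were of QA23, a commercial wine strain of *Saccharomyces cerevisiae*. All cultures, Control included, grew with shaking in YPD, a rich glucose medium. Melatonin was in the medium of MelH during growth, H2O2 was added early in exponential growth, and cells were harvested at the end of that hour, Control after the same hour without H2O2. The other 9 arrays are 3 each of H (2 mM H2O2 without melatonin), Mel (5 μM melatonin without H2O2) and 25MelH (25 μM melatonin and 2 mM H2O2). MelH and Control differ in both agents, so the shares of melatonin and of H2O2 in a change cannot be told apart from these 6 arrays alone, and the values of H and Mel are given beside them where they are tested. Arrays of a condition are biological replicates by the study's account. Names and values part in the normalized matrix that the authors also deposited. Its columns named MelH, Mel and H hold the values of the scanner tables labelled H, MelH and Mel, while those of Control and 25MelH match. The files do not state which naming is right, and the scanner tables were used under the labels they carry. Under these labels 4417 genes in H vs. Control and 609 in Mel vs. Control had an unadjusted p under 0.05 by limma. The study's own counts, given with an adjustment for many tests, lie near these. Under the matrix's names H vs. Control would be the scanner tables labelled Mel against Control, far from the study's count. Spike-in probes lay 0.78 to 1.45 above an array's 75th percentile, on the log2 scale, on the 9 scanner tables labelled with H2O2 and between −0.37 and 0.17 on the 6 labelled without. Under the matrix's names, MelH vs. Control would be what is given here as H vs. Control, with 4253 genes called (3604 of them among the 3871 called below). MelH vs. H and the contrast with the sum of both treatments depend on the naming far more, as stated with them.

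H2O2 is formed in respiring cells and, in excess, oxidizes the thiols of proteins, the iron-sulfur centres of enzymes, lipids and DNA. Yeast meets it with peroxidases, thioredoxins and glutathione enzymes, many of them under the transcription factors Yap1p and Skn7p, with chaperones under Hsf1p and Msn2/4p, and with a slowing of growth. Melatonin is an indoleamine made from tryptophan, which yeast also forms and which is known for scavenging of radicals.

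A level is the log2 signal of a gene's probe minus the 75th percentile of its array, so that 0 is the signal of that percentile and a difference of 1 is a doubling. A log2 change is the mean of the 3 MelH arrays minus that of the 3 Control arrays, with its standard error (SE) from limma, and a gene counts as called where the p of that test, adjusted by the Benjamini-Hochberg method over 6224 genes, fell under 0.05. With these settings 3871 genes (62.2%) were called, 1540 higher (24.7%) and 2331 lower (37.5%) in MelH. Every count of called genes in a group below stands beside these shares. The middle of the distribution was narrow and its lower tail long. The log2 change lay between −0.52 and 0.30 for the central part of genes, from the 25th to the 75th percentile, with a median of −0.08 and extremes of −5.56 and 3.44. At least 2-fold higher were 103 called genes (1.65%) and at least 2-fold lower 660 (10.6%). In 69.2% of all genes the MelH and Control arrays did not overlap. The plot of change against level shows both tails.

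**Figure D1:**
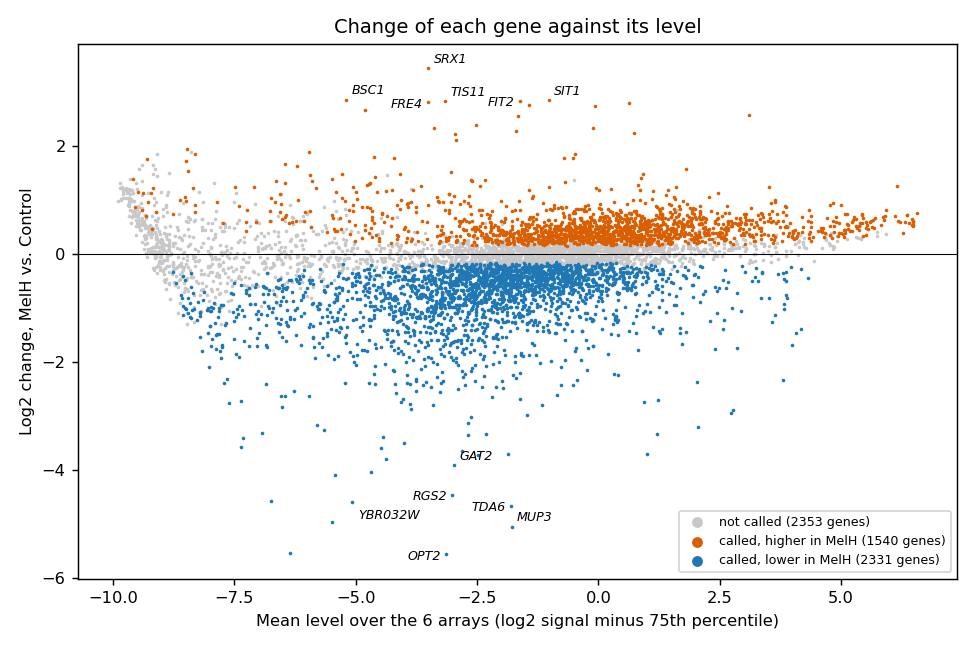
Log2 change in MelH vs. Control (vertical axis) against the mean level of a gene over the 6 arrays (horizontal axis, log2 signal minus the 75th percentile), with called genes that were higher in orange, lower in blue and all others in grey. The 6 genes with the largest rise and the 6 with the largest fall are named, among called genes without overlap and well above background on all 6 arrays. The falls, down to −5.56, reach further from 0 than the rises, up to 3.44.

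The direction of the whole set depended on how the arrays were scaled. Of the called genes 39.8% were higher with the 75th percentile, while centring on the array median, which raised every log2 change by 0.24 to 0.25, gave 2573 higher and 1555 lower (62.3% higher), quantile normalization 2018 and 1613 (55.6%) and normexp background correction 2192 and 1927 (53.2%). The signal at the 75th percentile was 2492 to 3571 units on the MelH arrays and 4193 to 5905 on the Control arrays, while 7 spike-in probes, which report a fixed amount of added RNA, lay 0.78 to 1.14 above that percentile on the MelH arrays and 0.28 to 0.37 below it on the Control arrays, on the log2 scale. Scaled on the spike-in probes, the middle of all log2 changes was −1.36 (median), with 26 genes called higher and 5911 lower. By the study's account RNA was isolated from a set number of cells per condition. On the arrays themselves fewer cells, less RNA per cell and differences in the RNA put in or its labelling cannot be told apart. The cause of the shift was not tested, and every change given below is relative to the 75th percentile. On the MelH arrays 88.7% to 92.2% of genes were well above background, and 91.2% to 96.8% on the Control arrays.

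Genes of peroxide defence were among those that rose. *SRX1* encodes sulfiredoxin, which restores peroxiredoxins that H2O2 has over-oxidized, and its level was −1.59, −1.75 and −2.01 on the MelH arrays, against −5.49, −4.83 and −5.35 on the Control arrays. The 3 MelH arrays lay far above the 3 Control arrays, a 10.8-fold rise (log2 change 3.44, SE 0.20, adjusted p = 4.44e-05). Of the 6 genes of peroxiredoxins and sulfiredoxin 4 rose and 1 fell. The peroxiredoxin genes *AHP1*, *TSA2* and *TSA1* had log2 changes of 1.26, 1.11 and 0.92 (*AHP1* 0.65 and *TSA1* 0.52 after quantile normalization), while the nuclear *DOT5* had −0.28 (0.051 and not called after quantile normalization) and the mitochondrial *PRX1*, at 0.11 (adjusted p = 0.285), was not called.

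Among 7 thioredoxin genes 4 rose and 0 fell. *TRX2*, a cytosolic thioredoxin, lay at 4.24, 4.07 and 4.08 on the MelH arrays, against 3.04, 2.90 and 2.73 on the Control arrays, with no overlap (log2 change 1.24, SE 0.097, adjusted p = 0.000133). Its partner *TRX1* gave 0.093 (adjusted p = 0.252), with overlapping arrays, and the mitochondrial *TRX3* −0.21 (adjusted p = 0.107). *MXR1*, which reduces oxidized methionine, rose by 1.33 (SE 0.091), and the thioredoxin reductase gene *TRR1* by 0.74. Of 8 glutaredoxin genes 4 rose and 1 fell. Among these were *GRX3* at 0.84 and *GRX4* at −1.19, a pair that senses iron together, so that the partners moved in opposite directions.

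Of 14 genes of glutathione synthesis and use 7 were higher and 4 lower. *GPX2*, a peroxidase of phospholipids and peroxides, had the largest rise of those measured on all 6 arrays, with levels of 0.58, 0.35 and 0.40 on the MelH arrays, against −1.26, −1.32 and −1.66 on the Control arrays (log2 change 1.85, SE 0.13, adjusted p = 8.00e-05). *GSH1*, for the rate-limiting step of glutathione synthesis, was at 0.00, −0.16 and 0.05 on the MelH arrays, against −0.72, −0.70 and −0.65 on the Control arrays, and *GLR1*, which reduces oxidized glutathione, rose by 0.49 (SE 0.075). *GSH2*, for the following step of synthesis, gave 0.12 (adjusted p = 0.115). The glutathione transporter gene *OPT1* fell by 1.31 on the log2 scale.

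Neither catalase gene was called. *CTT1*, the cytosolic catalase of the general stress response, was at −3.29, −3.21 and −3.25 on the MelH arrays, against −3.14, −3.32 and −3.27 on the Control arrays, with overlapping groups and a log2 change of −0.0041 (adjusted p = 0.959). The peroxisomal *CTA1* gave −0.074 (adjusted p = 0.378). Both depended on the scaling, since quantile normalization gave log2 changes of 0.57 for *CTT1* and 0.51 for *CTA1*, both called, and median centring 0.24 for *CTT1*, also called. *SOD1*, the cytosolic superoxide dismutase, rose by 0.91 (SE 0.13, 0.57 after quantile normalization), its copper chaperone gene *CCS1* by 0.73, the mitochondrial *SOD2* by 0.76 and the cytochrome c peroxidase gene *CCP1* by 0.56, so that 4 of the 6 genes of this group rose.

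NADPH feeds these reductases, and the largest rise of its group was in *ALD6*, the cytosolic acetaldehyde dehydrogenase that forms NADPH. Its level was 4.45, 4.34 and 4.36 on the MelH arrays, against 1.66, 1.74 and 2.04 on the Control arrays, 5.93-fold higher and without overlap (log2 change 2.57, SE 0.11, adjusted p = 1.74e-05). The pentose phosphate genes moved less. *ZWF1*, for the entry step, rose by 0.52 (SE 0.13, adjusted p = 0.0143) and *GND1* by 0.32 (SE 0.089, not called after quantile normalization), while *TAL1* and *SOL3* fell by 0.38 and 0.22 on the log2 scale, neither called after median centring, where *SOL3* had 0.027, and *GND2* gave 0.0033 (adjusted p = 0.964). In all, 7 of 13 genes of this group rose and 3 fell. The NADPH oxidoreductase gene *OYE3* rose by 1.78 (SE 0.085), whereas the 6 measured aryl alcohol dehydrogenase genes fell, *AAD10* furthest by 2.46. These 6 are near-identical in part, and signal shared among them cannot be told apart. With *OYE2* and *OYE3*, the group of 8 had a median of −0.38, which was 0.01 with normexp and 0.08 with quantile normalization, where 1 gene was called lower.

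Genes of 11 stress transcription factors were split, with 4 higher and 4 lower (36.4% each, where all genes gave 24.7% and 37.5%). *SKN7*, for a factor of the peroxide response, was at −3.65, −3.38 and −3.80 on the MelH arrays, against −2.00, −1.89 and −1.71 on the Control arrays, and *MSN4* at −4.10, −4.24 and −4.06 on the MelH arrays, against −1.88, −1.55 and −1.47 on the Control arrays. Both fell without overlap, 3.35-fold and 5.66-fold, and *MSN2* fell by 0.71 on the log2 scale. *YAP1* rose slightly, by 0.19 (adjusted p = 0.0481), and *HSF1* gave 0.098 (adjusted p = 0.266). Of 17 exporters of drugs 12 were lower and 3 higher, but 7 and 4 with median centring and 6 and 3 after quantile normalization. The list was led by the boron exporter gene *ATR1* at −2.98 (SE 0.10), and the exporter genes *SNQ2* and *PDR5* rose by 0.73 and 0.30.

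Chaperone genes rose widely. Of 28 genes of Hsp70, Hsp90, Hsp40 and Hsp60 chaperones and their partners 22 were higher (78.6%, where all genes gave 24.7%) and 2 lower, with a median of 0.69 beside −0.08 over all genes. *BTN2*, which gathers misfolded proteins, was at 0.05, −0.16 and −0.07 on the MelH arrays, against −2.78, −2.86 and −2.78 on the Control arrays, a 6.73-fold rise without overlap (log2 change 2.75, SE 0.073, adjusted p = 5.44e-06). The Hsp90 gene *HSP82* and its cochaperone gene *STI1* rose by 1.58 and 1.48 (SE 0.13 and 0.091), and the Hsp70 gene *SSA1* by 1.19. *HSP82* and *SSA1* have close paralogs, and signal shared with these cannot be told apart. Of the inducible Hsp70 genes *SSA4* rose by 0.33 (0.60 after quantile normalization) and *SSA3* fell by 0.59 on the log2 scale, and *SSA3* was not called after quantile normalization.

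Small heat shock proteins bind unfolding proteins before they aggregate. *HSP26* was at −1.74, −1.85 and −1.92 on the MelH arrays, against −3.86, −4.28 and −4.07 on the Control arrays, with no overlap (log2 change 2.23, SE 0.12, adjusted p = 3.38e-05), while *HSP42* rose by 0.52 and the disaggregase gene *HSP104* by 0.72. *HSP12*, well above background on 3 MelH and 2 Control arrays, rose by 1.63 on the log2 scale. The Msn2/4p list of 19 general stress genes held 6 higher and 7 lower ones (31.6% and 36.8%). These shares lie near those of all genes (24.7% and 37.5%). *DDR2*, for a small stress-induced protein, rose by 1.79 (SE 0.28), while *PGM2*, of glucose phosphate exchange, fell by 1.54. The median of this group was −0.22, and it was 0.03 with median centring, 0.07 with quantile normalization and 0.08 with normexp, so its sign depended on the scaling.

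Proteasome subunit genes rose by small amounts. In the 20S core 13 of 14 genes were higher and in the 19S cap 17 of 18, with 0 lower in both and medians of 0.45 and 0.38. After quantile normalization 9 and 11 were higher and 0 lower, with medians of 0.26 and 0.24. *PRE2*, a catalytic subunit, was at 2.59, 2.35 and 2.41 on the MelH arrays, against 1.79, 1.70 and 1.89 on the Control arrays, and *RPN1*, a scaffold of the cap, at 2.34, 1.96 and 2.05 on the MelH arrays, against 1.20, 1.17 and 1.29 on the Control arrays. No array of either gene overlapped between groups, and their log2 changes were 0.66 (SE 0.089) and 0.90 (SE 0.11). *RPN4*, for the transcription factor that drives proteasome genes, rose by 0.43. *ROQ1*, whose product steers the ubiquitin ligase Ubr1p to misfolded proteins, rose by 2.34 (SE 0.096) and *CIS1*, of the surveillance of protein import into mitochondria, by 2.67 (SE 0.14). Autophagy genes were split, with 6 of 20 higher and 10 lower and a median of −0.20, or 0.05 with median centring and 0.21 with quantile normalization, where 10 were higher and 5 lower. *ATG8*, for the protein that marks the autophagosome, had 0.75 (1.20 after quantile normalization), and *ATG4*, for the protease that processes it, −2.15 (−1.37 with normexp).

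**Figure D2:**
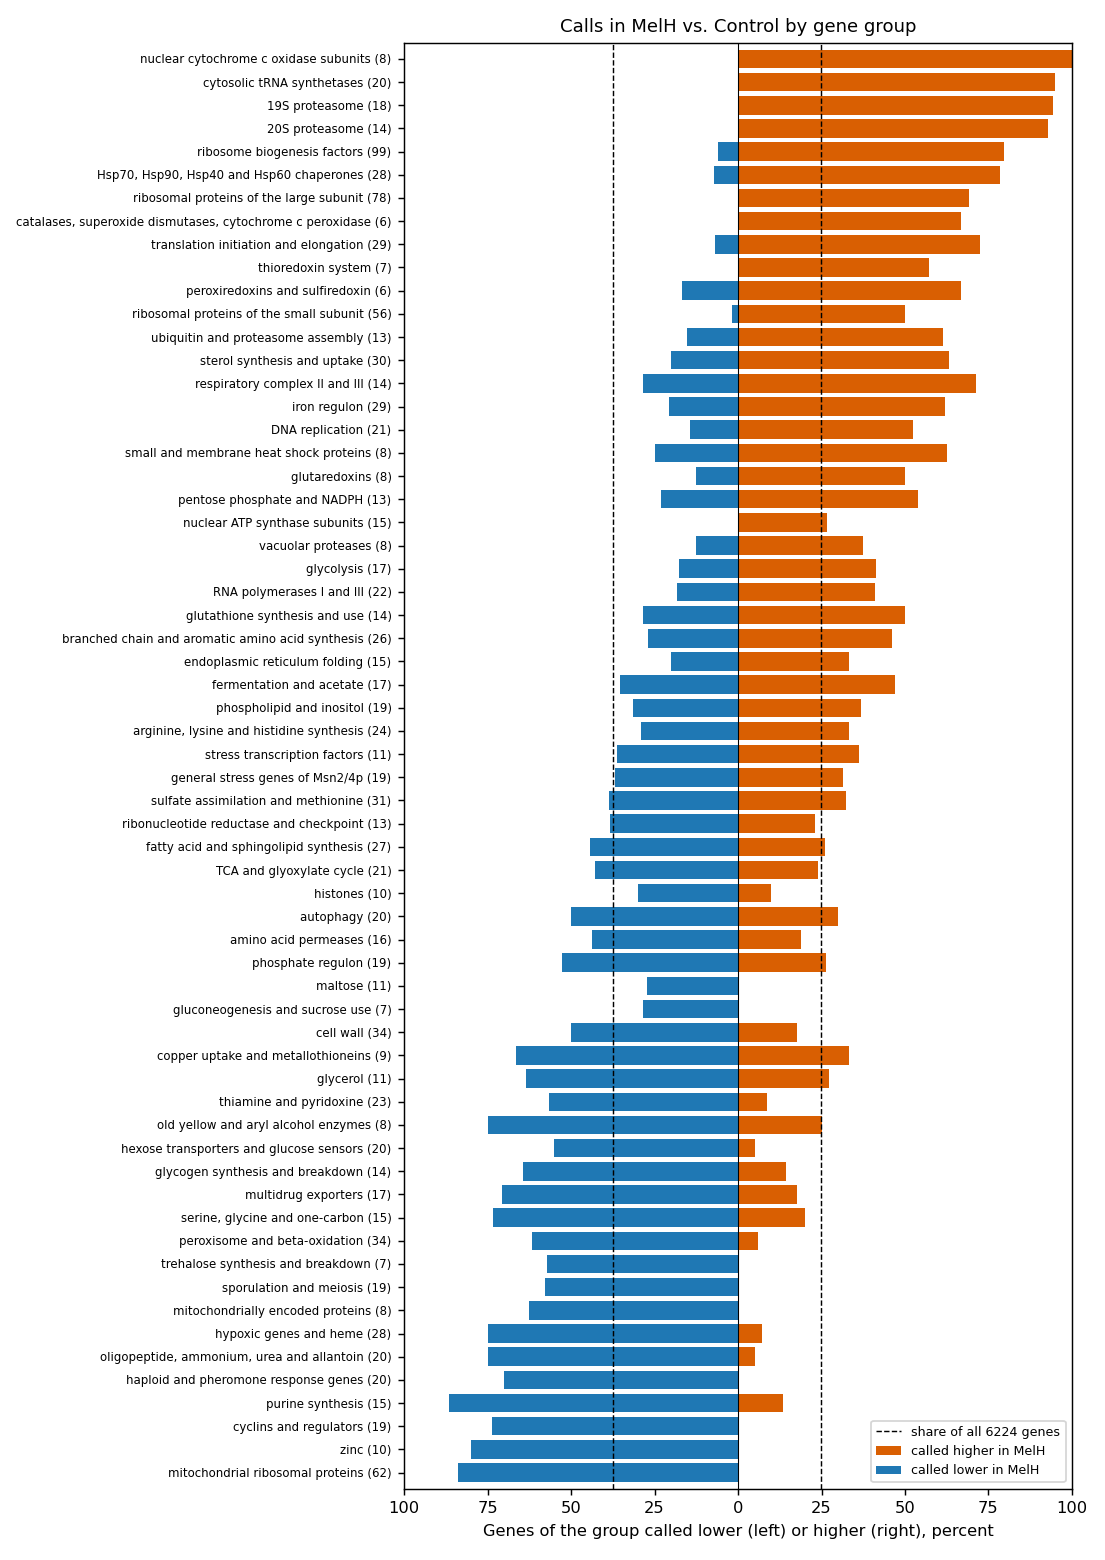
Share of the measured genes of each group that were called higher (orange, to the right) and lower (blue, to the left) in MelH vs. Control, in percent, with the number of measured genes beside each name and dashed lines at the shares of all 6224 genes, 24.7% and 37.5%. Proteasome, tRNA synthetase and nuclear cytochrome c oxidase genes reach furthest right, and purine, mitochondrial ribosome and zinc genes furthest left.

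By count, uptake of iron held more genes at least 2-fold higher than any other of the 62 gene lists, 11 of 29, where all genes gave 1.65%. It was 10 without *FRE5*, which no array of either group measured well above background. By share the list of peroxiredoxins and sulfiredoxin held more, 3 of 6. The iron regulon is driven by the factor Aft1p when iron-sulfur clusters are short, and it takes up iron by reductases, a ferroxidase and siderophore carriers. Of the 29 measured genes 18 were higher and 6 lower. *SIT1*, a siderophore carrier, was at 0.40, 0.33 and 0.49 on the MelH arrays, against −2.34, −2.47 and −2.53 on the Control arrays (log2 change 2.85, SE 0.077, adjusted p = 5.44e-06). *FIT2*, a cell wall protein that holds siderophores, was at −0.20, −0.05 and −0.35 on the MelH arrays, against −2.66, −3.10 and −3.34 on the Control arrays. Both groups of arrays were far apart for these genes, 7.22-fold and 7.13-fold.

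*TIS11*, also called *CTH2*, whose product marks transcripts of iron-using proteins for decay, was at −1.57, −2.05 and −1.64 on the MelH arrays, against −4.80, −4.72 and −4.22 on the Control arrays (log2 change 2.83, SE 0.20, adjusted p = 8.73e-05), and the ferric reductase gene *FRE4* at −2.16, −2.04 and −2.11 on the MelH arrays, against −4.80, −4.93 and −5.02 on the Control arrays (log2 change 2.81, SE 0.077, adjusted p = 5.44e-06). Heme oxygenase, which frees iron from heme, is encoded by *HMX1*, at −0.56, −0.30 and −0.24 on the MelH arrays, against −2.94, −2.81 and −3.05 on the Control arrays (log2 change 2.56, SE 0.11, adjusted p = 1.74e-05). None of these 3 genes overlapped between the groups. *ARN1* and *FET3* rose by 2.29 and 1.28, but *FTR1*, for the permease that works with Fet3p, gave 0.14 (adjusted p = 0.147). Falls were seen in *FET4*, the low-affinity carrier, at −2.04, and in *CCC1*, which stores iron in the vacuole, at −1.28 (SE 0.050).

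The genes of both high-affinity copper carriers rose and the metallothionein genes fell. *CTR3*, a high-affinity copper carrier, was at 1.21, 1.27 and 1.41 on the MelH arrays, against −1.75, −1.10 and −1.50 on the Control arrays (log2 change 2.75, SE 0.17, adjusted p = 5.55e-05), and *CTR1* at 1.55, 1.60 and 1.60 on the MelH arrays, against 0.23, 0.30 and −0.02 on the Control arrays (log2 change 1.41, SE 0.093, adjusted p = 7.49e-05). The metallothionein gene *CUP1-1*, whose product binds copper, was at 1.20, 1.39 and 1.22 on the MelH arrays, against 4.22, 4.07 and 4.34 on the Control arrays, a 7.69-fold fall. Its copy *CUP1-2* cannot be told apart from it by such probes and had a log2 change of −2.88. The other metallothionein gene *CRS5* fell by 1.13 on the log2 scale, and of the 9 copper genes 3 rose and 6 fell.

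Zinc genes were lower in 8 of 10 cases and higher in 0, with a median of −1.21. *IZH4*, of a membrane protein family of zinc homeostasis, was at −4.35, −4.27 and −4.38 on the MelH arrays, against −0.57, −0.73 and −0.54 on the Control arrays, 13.2-fold lower (log2 change −3.72, SE 0.073, adjusted p = 3.97e-06). The zinc carrier gene *ZRT1* was at −2.23, −2.16 and −2.17 on the MelH arrays, against −0.17, −0.58 and −0.87 on the Control arrays, also with no overlap, and *ZRT2* fell by 1.03. *ZAP1*, the activator of this regulon, had −2.84 (−0.74 with normexp), but only 1 of 3 MelH arrays measured it well above background.

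The machinery of cytosolic translation was higher relative to the 75th percentile. Of 20 cytosolic tRNA synthetase genes 19 were higher and 0 lower, with a median of 0.56, and of 99 ribosome biogenesis factors 79 were higher and 6 lower, with a median of 0.45. The synthetase gene *ALA1* was at 1.14, 0.95 and 1.07 on the MelH arrays, against 0.31, 0.31 and 0.27 on the Control arrays, and *NOP7*, of the large subunit's assembly, at 2.69, 2.47 and 2.47 on the MelH arrays, against 1.69, 1.76 and 1.51 on the Control arrays. Groups did not overlap for these genes, and their log2 changes were 0.76 and 0.89 (SE 0.068 and 0.098). *NSR1*, a nucleolar protein of rRNA processing, had the lowest log2 change of the assembly factors at −0.46, and was not called with median centring.

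Ribosomal protein genes rose on this scale as well, with 54 of 78 of the large subunit and 28 of 56 of the small subunit higher, 0 and 1 lower, and medians of 0.42 and 0.35. Their direction was not stable to scaling. After quantile normalization 16 of the large and 6 of the small subunit genes were higher, 1 and 7 lower, with medians of 0.08 and −0.04. Many of these genes come as close copies, whose shared signal cannot be told apart. The exception in the main scaling was *RPS28B*, at 1.11, 0.73 and 0.84 on the MelH arrays, against 2.36, 2.68 and 2.65 on the Control arrays, a fall without overlap of 1.67 on the log2 scale (SE 0.13). Factors of translation initiation and elongation were higher in 21 of 29 cases and lower in 2, *SUI1* at −1.09 and *ANB1* at −0.62, and 7 and 2 after quantile normalization.

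Ribosomal proteins of the mitochondrion went the other way, with 0 of 62 genes higher and 52 lower (83.9%, where all genes gave 37.5%) and a median of −0.48. *MRPL22* was at −0.34, −0.40 and −0.32 on the MelH arrays, against 0.45, 0.54 and 0.53 on the Control arrays, and *MRPS9* at −1.17, −1.23 and −1.24 on the MelH arrays, against −0.35, −0.45 and −0.37 on the Control arrays, each without overlap, and their log2 changes were −0.86 and −0.83 (SE 0.057 and 0.057). After median centring 36 genes were lower and 4 higher, with a median of −0.23.

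Subunits of the respiratory chain differed by complex. Complex II, succinate dehydrogenase, was lower in all 4 of its genes (2 of them called after median centring), and *SDH2*, its iron-sulfur subunit, was at −0.98, −0.96 and −1.20 on the MelH arrays, against 0.46, 0.30 and 0.35 on the Control arrays, a 2.68-fold fall (log2 change −1.42, SE 0.088, adjusted p = 6.00e-05). All 9 nuclear genes of complex III measured and *CYC1*, for the cytochrome c that follows it, were higher, *CYC1* at 3.68, 3.62 and 3.46 on the MelH arrays, against 2.74, 2.77 and 2.66 on the Control arrays (log2 change 0.86, SE 0.077, adjusted p = 0.000227). All 8 nuclear genes of cytochrome c oxidase (complex IV) rose as well, from 0.29 for *COX6* to 1.06 for *COX13*. *COX13* was at 3.02, 2.70 and 2.71 on the MelH arrays, against 1.84, 1.76 and 1.63 on the Control arrays, and the groups did not overlap. After quantile normalization 6 of these 8 were called. Of 15 nuclear genes of ATP synthase 4 were higher (26.7%, where all genes gave 24.7%) and 0 lower, with a median of 0.13. Median centring gave 10 higher and 0 lower, and quantile normalization 2 higher and 3 lower with a median of 0.004.

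Genes on the mitochondrial genome were lower in 5 of 8 cases and higher in 0, or in 2 with normexp. *COB*, the cytochrome b subunit of complex III, was at 0.48, 0.67 and 0.50 on the MelH arrays, against 2.07, 2.00 and 1.94 on the Control arrays (log2 change −1.45, SE 0.076, adjusted p = 3.38e-05), so that it fell while the nuclear genes of its complex rose. *COX2* fell by 0.91 (−0.51 after quantile normalization), and *COX1*, with −0.25 (adjusted p = 0.0523), was not called. No array of either group measured *ATP6* well above background. In the plot of mitochondrial genes by compartment, nuclear and mitochondrial genes part in complexes III and IV. The nuclear genes of complex II lie below 0 as well, so this split does not hold for the whole chain.

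**Figure D3:**
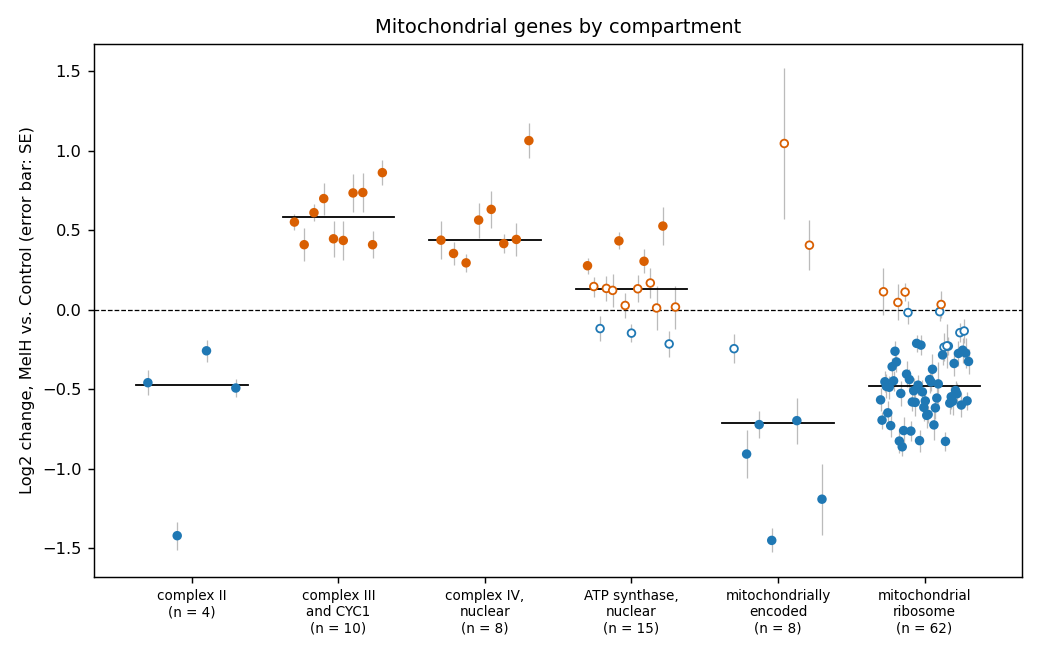
Log2 change in MelH vs. Control of single genes (points, vertical axis) of mitochondrial groups (horizontal axis), filled where called and open where not, with the SE of each gene as a grey line, the median of each group as a bar and 0 as a dashed line. The 4 genes of complex II lie below 0 and the nuclear genes of complexes III and IV above it, while the mitochondrial ribosome has a median of −0.48.

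Hypoxic genes and genes of heme, a list that also holds *ROX1*, were mostly lower, 21 of 28 against 2 higher, with a median of −0.54. *ROX1*, the repressor of hypoxic genes that is made when heme is present, was at −1.39, −1.13 and −1.49 on the MelH arrays, against −3.99, −3.65 and −3.53 on the Control arrays, 5.23-fold higher (log2 change 2.39, SE 0.15, adjusted p = 6.01e-05). *HEM13*, for the oxygen-using step of heme synthesis and a known target of Rox1p, was at −0.76, −0.76 and −0.83 on the MelH arrays, against 1.29, 1.24 and 1.79 on the Control arrays (log2 change −2.22, SE 0.15, adjusted p = 8.07e-05). The groups did not overlap for either gene. Isoform pairs moved in opposite directions on this scale. *COX5A*, the aerobic subunit of complex IV, rose by 0.35 and its hypoxic partner *COX5B* fell by 1.01. *HYP2* rose by 0.67 and its hypoxic partner *ANB1* fell by 0.62, and with *CYC1* higher, *CYC7* fell by 0.32, all on the log2 scale. After quantile normalization *COX5A* and *HYP2* were not called, *COX5B* had −0.63 and *CYC7* turned to 0.29. The mannoprotein gene *TIR4* fell by 1.61 (−0.98 with normexp and −1.06 after quantile normalization) and the ADP/ATP carrier gene *AAC3* by 1.06.

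Sterol genes were higher in 19 of 30 cases and lower in 6. *HMG1*, for the rate-limiting reductase of the pathway, was at 2.03, 2.18 and 1.90 on the MelH arrays, against 0.98, 0.87 and 0.68 on the Control arrays (log2 change 1.19, SE 0.11, adjusted p = 0.000234), and *ARE2*, which esterifies sterols, rose by 0.99. Sterol uptake genes were lower, with *AUS1* at −0.96 (−0.37 after quantile normalization), *PDR11* at −0.70 and their activator *UPC2* at −0.70 (*PDR11* and *UPC2* not called after quantile normalization). Among fatty acid and sphingolipid genes 7 of 27 rose and 12 fell (25.9% and 44.4%, where all genes gave 24.7% and 37.5%). Their median of −0.24 was 0.01 with median centring, where 10 rose and 10 fell. The synthase genes *FAS1* and *FAS2* rose by 0.39 and 0.63 (0.20 and 0.41 after quantile normalization), *SUR2*, a hydroxylase of sphingoid bases, fell by 1.47, and *OLE1*, the only desaturase of yeast fatty acids, gave 0.058 (adjusted p = 0.614) with overlapping arrays. Peroxisome and beta-oxidation genes were lower in 21 of 34 cases and higher in 2, and in 11 and 9 after quantile normalization.

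Storage carbohydrate genes were mostly lower. Of 14 glycogen genes 9 fell and 2 rose, with a median of −1.09. *GLG1*, for glycogenin, which starts the polymer, was at −4.70, −4.72 and −4.48 on the MelH arrays, against −0.90, −1.02 and −1.06 on the Control arrays (log2 change −3.64, SE 0.086, adjusted p = 4.50e-06), and the synthase gene *GSY1* at −2.79, −2.61 and −2.74 on the MelH arrays, against −0.38, −0.47 and −0.71 on the Control arrays (log2 change −2.19, SE 0.10, adjusted p = 2.48e-05). The breakdown gene *GPH1* fell by 1.62 too. Of 7 trehalose genes 4 fell and 0 rose, *TSL1* furthest at −2.39 (SE 0.12), and of 11 glycerol genes 7 fell and 3 rose, *GPD1*, for the step that makes glycerol phosphate, furthest at −1.45. The glycerol genes had 5 lower and 5 higher with normexp, 4 and 4 with median centring and 4 and 2 after quantile normalization. With normexp the median of the glycogen group was −0.34.

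Sugar uptake was lower in 11 of 20 hexose carrier and sensor genes and higher in 1. *HXT6* and *HXT7*, near-identical high-affinity carriers whose signals cannot be told apart, gave −3.32 and −3.20. *HXT3*, a low-affinity carrier, was at 3.34, 3.39 and 3.21 on the MelH arrays, against 4.43, 4.36 and 4.21 on the Control arrays (log2 change −1.02, SE 0.083, adjusted p = 0.000161), and *HXT2* was the member that rose, by 0.46 (SE 0.071, 0.25 after quantile normalization). Only 12 of the 20 were well above background on all 6 arrays, and with normexp the group's median was 0.12, beside −0.64 in the main scaling, with 8 higher and 9 lower.

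In glycolysis the sugar kinase genes *HXK1* and *GLK1* fell by 2.42 and 1.44, and *FBA1* and *CDC19*, of its later steps, rose by 0.65 and 0.59. After quantile normalization *FBA1* and *CDC19* were not called, and *CDC19* had −0.044. Of its 17 genes 7 were higher and 3 lower, but 1 and 4 after quantile normalization, where the median was −0.06 beside 0.33 in the main scaling. Ethanol formation had higher *PDC1* and *ADH1* (0.73 and 0.76, neither called after quantile normalization), while *ADH5*, a minor isozyme, was at −3.83, −3.61 and −3.68 on the MelH arrays, against −0.10, −0.06 and 0.11 on the Control arrays, 12.9-fold lower (log2 change −3.69, SE 0.089, adjusted p = 4.61e-06). *PYC1*, which makes oxaloacetate from pyruvate, rose by 1.20, and the glyoxylate genes *MDH2*, *CIT2* and *ICL1* fell by 1.89, 1.58 and 1.16 (*ICL1* −0.63 after quantile normalization).

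Carriers of nitrogen compounds held the largest fall on the arrays. *OPT2*, an oligopeptide transporter that also acts on glutathione, was at −6.11, −5.63 and −5.99 on the MelH arrays, against −0.47, −0.38 and −0.21 on the Control arrays, 47.1-fold lower without overlap (log2 change −5.56, SE 0.14, adjusted p = 4.61e-06). Of 20 genes of oligopeptides, ammonium, urea and allantoin 15 fell and 1 rose, with a median of −0.99. The ammonium carrier gene *MEP2* was at −5.87, −5.57 and −5.78 on the MelH arrays, against −3.52, −3.57 and −3.48 on the Control arrays, with a log2 change of −2.22 (−1.27 with normexp), and *GLN1*, glutamine synthetase, fell by 2.34 (SE 0.095). *DAL5*, for allantoate uptake, fell by 1.62 (−1.07 after quantile normalization), and *GAP1*, the general amino acid permease, by 1.74 (1.00 with normexp). The rise in this set was that of *GDH1*, which forms glutamate from ammonium, by 0.51 (0.30 after quantile normalization).

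*MUP3*, a low-affinity methionine permease, was at −4.41, −4.30 and −4.21 on the MelH arrays, against 0.80, 0.86 and 0.55 on the Control arrays, 32.9-fold lower (log2 change −5.04, SE 0.10, adjusted p = 3.97e-06), while *MUP1*, the high-affinity permease, fell by 0.95. Sulfur genes otherwise went both ways, with 10 of 31 higher and 12 lower (32.3% and 38.7%, where all genes gave 24.7% and 37.5%). *CYS3*, of cysteine synthesis, rose by 1.00 (SE 0.092), and *MET6*, methionine synthase, fell by 1.42. Their median of −0.05 turned to 0.20 with median centring, 0.23 with quantile normalization and 0.09 with normexp, and to 0.03 relative to all genes with spike-in scaling.

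Of 15 genes of serine and one-carbon metabolism 11 fell and 3 rose, with a median of −0.999. *SER3*, for the entry step of serine synthesis, was at −0.81, −0.89 and −0.82 on the MelH arrays, against 2.86, 2.77 and 2.92 on the Control arrays, 12.9-fold lower (log2 change −3.69, SE 0.064, adjusted p = 3.97e-06), and the glycine cleavage gene *GCV1* was at −0.36, −0.38 and −0.52 on the MelH arrays, against 2.15, 2.46 and 2.33 on the Control arrays (log2 change −2.73, SE 0.097, adjusted p = 1.29e-05). *CHA1*, which breaks serine and threonine down, was at 2.16, 1.90 and 2.05 on the MelH arrays, against −0.90, −0.71 and −0.65 on the Control arrays, 6.92-fold higher (log2 change 2.79, SE 0.10, adjusted p = 1.34e-05). The arrays of MelH and Control did not overlap for any of these 3 genes.

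Purine synthesis takes up one-carbon units, and 13 of its 15 genes were lower and 2 higher, with a median of −0.95. *ADE17*, for the final steps to inosine phosphate, was at 3.53, 3.56 and 3.37 on the MelH arrays, against 4.97, 4.84 and 4.80 on the Control arrays (log2 change −1.39, SE 0.080, adjusted p = 4.49e-05), and *ADE1* at 1.96, 1.88 and 1.76 on the MelH arrays, against 3.28, 3.22 and 3.25 on the Control arrays. Neither gene overlapped between the groups. The isozyme of *ADE17*, *ADE16*, was among the 2 that rose, by 0.42. Amino acid synthesis genes were mixed, with 8 higher and 7 lower of 24 (17 and 4 with median centring) for arginine, lysine and histidine and 12 and 7 of 26 (16 and 3 with median centring, 8 and 7 after quantile normalization) for branched and aromatic amino acids, where *ILV5* fell by 1.74 and *ARO10* rose by 1.08.

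Cell cycle regulators were lower in 14 of 19 cases and higher in 0, with a median of −0.60, or in 9 and 2 after quantile normalization. *PCL1*, a cyclin of the G1 phase with the kinase Pho85p, was at −4.42, −4.32 and −4.36 on the MelH arrays, against −0.98, −1.03 and −1.03 on the Control arrays, 10.2-fold lower (log2 change −3.36, SE 0.055, adjusted p = 3.97e-06). The G1 cyclin gene *CLN1* was at −2.36, −2.04 and −2.09 on the MelH arrays, against 0.61, 0.40 and 0.32 on the Control arrays (log2 change −2.61, SE 0.12, adjusted p = 2.13e-05), and *CLN2* and *CLN3* fell by 0.68 and 0.80, neither called after quantile normalization. The mitotic cyclin gene *CLB2* fell by 0.96 and *CLB1* by 2.33. *CDC6*, which loads replication origins, fell by 2.12, although 11 of 21 replication genes were higher and 3 lower, *POL2* at 0.90. *RNR1*, of ribonucleotide reductase, fell by 0.60 and the DNA damage gene *HUG1* rose by 0.67 (1.08 after quantile normalization). Daughter-cell wall genes fell as well, with *SCW11* at −2.27 and *EGT2* at −1.37, and 17 of 34 cell wall genes were lower and 6 higher. That balance depended on the scaling, with 10 lower and 12 higher with median centring and 19 and 1 after quantile normalization.

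Some of the largest changes lay in genes outside the groups. *TDA6*, a putative protein, was at −4.20, −3.99 and −4.22 on the MelH arrays, against 0.70, 0.53 and 0.33 on the Control arrays, 25.2-fold lower, and *RGS2*, a negative regulator of glucose-sensing signals through Gpa2p, at −5.36, −5.13 and −5.23 on the MelH arrays, against −0.88, −0.79 and −0.70 on the Control arrays, 21.9-fold lower. *GAT2*, of the GATA family of factors, was at −5.07, −4.81 and −4.92 on the MelH arrays, against −1.03, −1.01 and −1.05 on the Control arrays, 15.0-fold lower. These 3 genes had adjusted p of 4.61e-06, 3.97e-06 and 3.97e-06 by limma. They were named from called genes whose groups did not overlap, so neither the call nor the lack of overlap is a further result. *BNA2*, for the entry step from tryptophan to NAD, was at −5.76, −5.90 and −5.60 on the MelH arrays, against −2.39, −2.56 and −1.84 on the Control arrays, 11.2-fold lower, and *STP4* fell by 3.33. Among rises, *BSC1* was at −3.79, −3.62 and −3.88 on the MelH arrays, against −6.69, −6.93 and −6.25 on the Control arrays (log2 change 2.86, SE 0.18, adjusted p = 6.29e-05), and *MOR1* rose by 2.33.

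Some genes were well above background on the Control arrays and not on the MelH arrays, so that only a bound can be given, with each MelH array set to the lowest signal that counted as well above background on it or to the gene's own signal if higher. *PHM6*, a gene of phosphate limitation, was at least 26.5-fold lower, the mitochondrial frame *Q0182* at least 23.5-fold and *SPO19* at least 12.8-fold lower. The bounds of *PIR5* and *NRS1* were 6.46-fold and 5.89-fold. All 3 Control arrays and none of the 3 MelH arrays measured these 5 genes well above background. The bounds use the background-subtracted signal of the scanner software. With normexp, the log2 changes of *PHM6*, *Q0182*, *SPO19*, *PIR5* and *NRS1* were −2.36, −2.19, −1.51, −0.76 and −0.67.

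**Figure D4:**
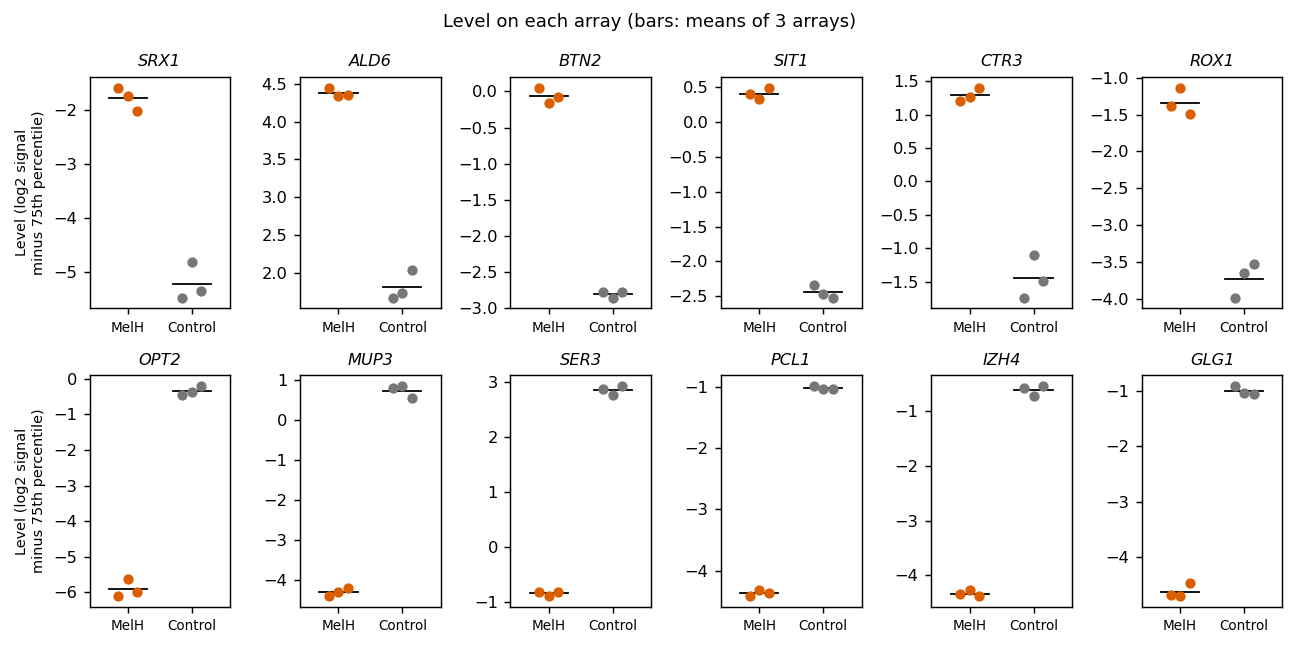
Level of 12 genes on each array (vertical axis, log2 signal minus the 75th percentile), with the 3 MelH arrays left (orange) and the 3 Control arrays right (grey) in each panel and the mean of each group as a bar. The upper 6 genes were higher and the lower 6 lower in MelH. No panel has an array of one group within the range of the other. This is no further result, since the largest changes were named only from called genes without overlap.

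Some of the genes used or measured by qPCR in the study were looked at as well, and not all of its targets are given. Its reference genes *ACT1*, *HEM2* and *TAF10* had log2 changes of 0.31, 0.11 and −0.0046 (adjusted p = 0.039, 0.157 and 0.949), so that *ACT1* was called higher on this scale, and not after quantile normalization. *TAF10* was called higher with median centring, at 0.24. *MGA1*, of the heat shock factor family, was at −6.93, −6.38 and −6.19 on the MelH arrays, against −4.74, −4.41 and −4.73 on the Control arrays (log2 change −1.87, SE 0.21, adjusted p = 0.000505), and fell by 0.77 with normexp. *ADY2*, an acetate carrier, was well above background on 1 of 3 MelH and 2 of 3 Control arrays and was not called, at −0.42, while with normexp it had 0.48 and was called.

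The changes of H are given beside those of MelH for 4 of the genes above, and as both comparisons share the 3 Control arrays, their likeness is no result. *OPT2* had −5.56 in MelH vs. Control and −5.54 in H vs. Control, *ALD6* 2.57 and 2.54, *SIT1* 2.85 and 2.82, and *SER3* −3.69 and −3.59. The difference itself was tested in MelH vs. H, where limma called 0 genes (smallest adjusted p = 0.322). Without adjustment 760 genes (12.2%) passed 0.05, of which 456 were higher and 304 lower in MelH. That count was not stable, at 370, 466 and 494 without H replicate 1, 2 and 3, 392 with all 15 arrays in the fit, 241 with spike-in scaling and 417 and 204 within slide 1 and 2, and with normexp its direction turned (251 higher and 355 lower). Under the names of the normalized matrix, where MelH and H are the scanner tables labelled H and Mel, 3470 genes were called, 1356 higher and 2114 lower. By the scanner labels that sets tables with H2O2 against tables without it. The study's count for MelH vs. H lies near the 760 above. The 0 calls do not show that MelH and H were alike. *SRX1* differed by 0.62 (SE 0.11), *CIS1* by 0.74 (SE 0.14) and *BTN2* by 0.49 (SE 0.080), and none was called. These 3 genes were picked and do not stand for all genes.

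The smallest p values in MelH vs. H were those of *HSP42*, *SDH6*, *YMR090W*, *RGI1*, *HSP26* and *TPO1*. *SDH6*, an assembly factor of succinate dehydrogenase, was at −3.79, −3.82 and −3.81 in MelH, against −4.14, −4.11 and −4.21 in H and −4.07, −4.22 and −4.00 in Control. The uncharacterized *YMR090W* was at −2.08, −2.25 and −2.20 in MelH, against −2.75, −2.69 and −2.61 in H and −2.67, −2.74 and −2.66 in Control, and *RGI1*, of energy metabolism, at −2.82, −2.82 and −2.91 in MelH, against −3.20, −3.22 and −3.17 in H and −0.54, −0.60 and −0.55 in Control. These 3 genes were all higher in MelH than in H, with differences of 0.35, 0.50 and 0.35. Their MelH and H arrays did not overlap, which is no further result, since the genes were chosen for the smallest p. Against Control, *SDH6* rose by 0.29 and *YMR090W* by 0.51 (0.91 after quantile normalization), while their log2 changes in H were −0.061 and 0.010. *RGI1* fell by 2.28 and its log2 change in H was −2.63.

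By groups, an unadjusted p under 0.05 in MelH vs. H was held by 4 of 8 small and membrane heat shock protein genes, 4 of 8 nuclear cytochrome c oxidase genes and 4 of 8 mitochondrially encoded genes. It was also held by 5 of 15 nuclear ATP synthase genes, 3 of 7 thioredoxin genes and 2 of 6 genes of peroxiredoxins and sulfiredoxin. All of these were higher in MelH. The median differences, in the order named, were 0.26, 0.18, 0.19, 0.10, 0.13 and 0.12. Of all genes 456 were higher and 304 lower at such a p, 12.2% for both directions. Such a p was also held by 5 of 20 autophagy and 4 of 14 glutathione genes, all higher, and by 7 of 28 chaperone genes, 6 of them higher. Of 8 vacuolar protease genes 3 had such a p, 1 of them higher, and of 9 copper genes 3, 2 of them higher. None passed the adjusted threshold, and these groups were picked for their counts. Of 99 ribosome biogenesis factors 10 had such a p, 1 of them higher.

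The contrast of MelH with the sum of both single treatments asks whether the change of MelH vs. Control equals that of Mel plus that of H. It called 21 genes (0.337%), 9 above and 12 below the sum, by limma over 12 arrays, and 596 (9.58%) passed 0.05 without adjustment. *DIP5*, a permease of glutamate and aspartate, was at −1.58, −1.53 and −1.51 in MelH, −1.49, −1.48 and −1.46 in H, −0.81, −0.74 and −0.96 in Mel and −1.90, −1.70 and −1.75 in Control. Mel alone stood high, and MelH lay near H, 1.01 below the sum on the log2 scale (SE 0.10, adjusted p = 0.00876). *GPX2* was at 0.58, 0.35 and 0.40 in MelH, 0.25, 0.32 and 0.28 in H, −2.43, −2.35 and −2.57 in Mel and −1.26, −1.32 and −1.66 in Control. Here Mel alone stood low and MelH was 1.20 above the sum (SE 0.15, adjusted p = 0.0177).

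In *ANB1*, *ATF1*, *UPC2*, *CTR1* and *COX5A*, which were also called, the Mel arrays lay apart from the Control arrays. *ANB1* had a log2 change of −0.62 in MelH vs. Control, −0.75 in H vs. Control and 1.17 in Mel vs. Control. In the same order *ATF1*, for an ester-forming acetyltransferase, had −0.57, −0.64 and 0.73, *UPC2* −0.70, −0.49 and 0.53, *CTR1* 1.41, 1.53 and −1.07, and *COX5A*, chosen after its values were seen, 0.35, 0.15 and −0.52. These calls were not stable. Under the names of the normalized matrix 47 genes were called, 14 of them among the 21. With the replicate number as a block 2 genes were called, within each slide 0, and with single arrays left out between 0 and 95. They were 0 without MelH replicate 1, H replicate 1 or H replicate 3, 1 without MelH replicate 3 or Control replicate 1, 3 without H replicate 2 or Control replicate 2, and 95 without Mel replicate 2.

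**Figure D5:**
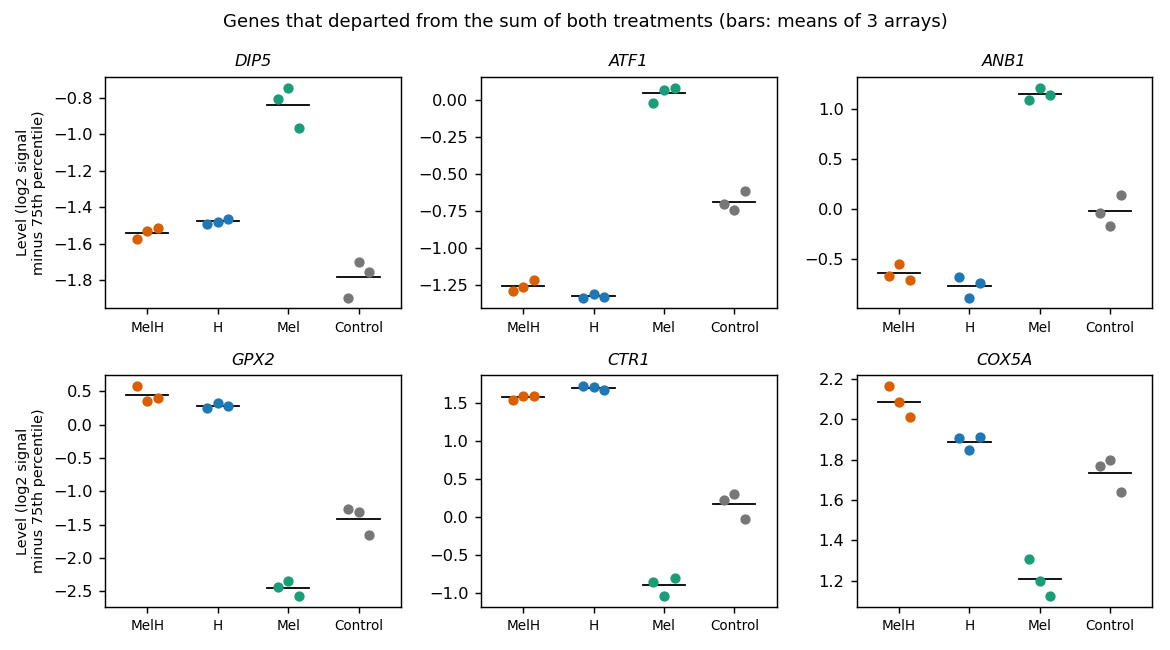
Level of 6 genes with a called departure from the sum of both treatments, on each array of MelH, H, Mel and Control (horizontal axis, 3 arrays each, vertical axis log2 signal minus the 75th percentile), with group means as bars. In each panel the Mel arrays lie apart from the Control arrays, and the mean of MelH is closest to that of H.

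The higher dose of melatonin was set against MelH as well. In 25MelH vs. MelH limma called 0 genes (smallest adjusted p = 0.906), and 82 passed 0.05 without adjustment, of which 47 were higher and 35 lower in 25MelH. That count was 268 without MelH replicate 2 (203 higher and 65 lower), 53 without 25MelH replicate 1, 137 and 292 within slide 1 and 2, 279 with spike-in scaling (24 higher and 255 lower) and 0 with normexp, and quantile normalization turned its balance (45 higher and 64 lower). Under the names of the normalized matrix it was 1003, with 0 genes called. *SRX1* had 3.76 in 25MelH vs. Control beside 3.44 in MelH vs. Control, *OPT2* −5.53 beside −5.56, *BTN2* 2.78 beside 2.75 and *CHA1* 2.83 beside 2.79, all on the log2 scale and from the same Control arrays. The difference of *SRX1* between the doses was 0.32 (SE 0.12, adjusted p = 0.9998).

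Markers of other cell states were dim. Of 20 genes of haploid cells and pheromone response 9 were well above background on all 6 arrays, and of 19 of sporulation 6, beside 5448 of all 6224 genes. Their log2 changes had medians of −0.64 and −0.63, which turned to 0.11 and 0.22 with normexp, so no direction is given. The 6 arrays lay on both slides, with 2 MelH and 2 Control arrays on slide 1 and 1 of each on slide 2. With the slide as a block 3915 genes were called, within slide 1 3435 and within slide 2, with 1 array per group and the spread taken from all groups of that slide, 1047. Arrays of a condition correlated with r of 0.993 to 0.996 in MelH and 0.994 to 0.995 in Control across genes, which are not independent replicates.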

How the data were processed

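The 15 one-colour Agilent arrays carry total RNA labelled with Cy3. The deposited intensity tables hold background-subtracted spot signals that the authors extracted with Feature Extraction 12.0.1.1. The log2 matrix that the authors normalized to the 75th percentile and centred on probe medians served as an alternative, with columns paired by value, and its names for the arrays served as another, added after seeing the data. Here, control spots and outlier flags were left out, log2 signals were scaled to each array's 75th percentile over spots, the 2 spots of a probe were averaged, and the brightest probe stood for a gene. Tests used limma 3.58.1 in R 4.3.3 with Benjamini-Hochberg adjustment over 6224 genes, on the groups compared. They were tested on simulated data. The normexp alternative (offset 50) used median in place of mean spot signals. The number of arrays limits the precision. Same-numbered MelH and H arrays deviated together (r = 0.14, 0.31 and 0.26), and the blocked fit called 0 genes. Gene lists (62, with 1274 measured genes; 1 entry that matched another gene of the same name was left out), the comparison and the rule for named genes (the largest changes overall and in each list, the largest bounds, the smallest p against H and against the sum, and genes of the study's qPCR) were chosen with earlier results of these data known, and 61 of 197 genes named, chosen after their values were seen, lie outside the rule.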

Additional observations from a re-analysis of the deposited data

Results flagged for a closer look

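The effect of H2O2 differed with and without melatonin, by limma's test of that difference over 12 arrays with Benjamini-Hochberg adjustment, in 21 genes. Each value below is the log2 change of MelH vs. Mel minus that of H vs. Control, so it also holds the change of Mel vs. Control. Such a value does not show a different level under H2O2, where MelH vs. H called 0 genes. Against Control, *CTR1* rose less in MelH than in H, and *HEM13* fell by nearly the same amount in both. The permease gene *DIP5* had −1.01 (−0.70 with melatonin and 0.31 without, adjusted p = 0.00876), *ANB1* −1.04 (−1.79 and −0.75, adjusted p = 0.0165), *ATF1* −0.66 (−1.30 and −0.64, adjusted p = 0.0165), *UPC2* −0.73 (−1.22 and −0.49, adjusted p = 0.0177) and the urea carrier gene *DUR3* −0.97 (−2.18 and −1.20, adjusted p = 0.0177). Values of *GPX2*, *COX5A*, *CTR1* and the mitochondrial NADH dehydrogenase gene *NDE1* were positive, at 1.20 (2.90 and 1.69), 0.72 (0.88 and 0.15), 0.94 (2.48 and 1.53) and 0.63 (1.65 and 1.02).

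Other positive values were 0.90 for *YOR338W*, 0.74 for *PET18*, 1.30 for the phosphate carrier gene *PHO84* (1.45 with melatonin and 0.14 without), 0.67 for *YFL051C* and 0.57 for *YLL053C*. Other negative values were −0.96 for *YJR149W*, −1.23 for *HEM13* (−3.51 with melatonin and −2.27 without), −0.95 for the mannoprotein gene *TIR1* and −1.42 for *TIR4*, −0.87 for *CUP1-1*, −0.75 for *YLR257W* and −1.21 for *YHR022C*. The adjusted p of these genes and of those above lay between 0.00876 and 0.0460. The calls rest on few arrays, as given above with the counts after leaving out single arrays, and on the names of the scanner tables, since 14 of the 21 genes were called under those of the normalized matrix.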

How the results depend on the processing

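Depth in the sense of signal over background limits the dim genes: 5448 of 6224 genes were well above background on all 6 arrays. In MelH vs. Control 3871 genes were called, and 5937 with spike-in scaling, 1047 within slide 2 and 3354 to 3577 with single arrays left out, the others lying within 1.5 times the main count. In MelH vs. H 0 genes were called, 760 at an unadjusted p under 0.05, 3 within slide 1, 3470 under the names of the normalized matrix, an alternative chosen after seeing the data, and 0 in each other alternative. In 25MelH vs. MelH 0 were called, 82 at an unadjusted p, 12 with spike-in scaling and 0 otherwise. The departure from the sum of both treatments was called in 21 genes, in 32 after quantile normalization and with all 15 arrays in the fit, in 8 with spike-in scaling and with the slide as a block, in 0 within slide 1 and within slide 2, in 2 with the replicate number as a block, in 596 at an unadjusted p, in 47 under the names of the normalized matrix, and in 0 to 95 with single arrays left out.

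With the replicate number as a block 3637 genes were called in MelH vs. Control and 0 in MelH vs. H. The deviations of same-numbered MelH and Control arrays correlated with r of −0.06, −0.21 and 0.26. Same-numbered MelH and Control arrays also lay on the same slide, so these few values cannot show whether they were paired. Replicate 2 of MelH and of H lay on different slides (r = 0.31).

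Single genes turned as follows. With normexp *ADY2* had 0.48, and with median centring *SOL3* had 0.027, *CTT1* 0.24 and *TAF10* 0.24. After quantile normalization *CDC19* had −0.044, *CYC7* 0.29, *DOT5* 0.051, *CTT1* 0.57 and *CTA1* 0.51. The cause was not tested.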
